A study of Mus musculus with 11 samples.

Results

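Homeostatic microglia with few chemokine transcripts are described here in the cerebrovascular cells of CADASIL mice. They were chosen by counts of unique molecular identifiers (UMIs, 1 per captured transcript) in each barcode. A barcode was kept if it had 500 genes or more and no more than 10% of its UMIs were mitochondrial. It was taken as microglia when P2ry12, Cx3cr1, Tmem119 and Fcrls summed to at least 4 UMIs, when the endothelial genes Cldn5 and Flt1 summed to at most 3, and when the perivascular macrophage genes Mrc1 and Cd163 were at 0. It was taken as low in chemokines when Ccl3, Ccl4, Tnf, Il1a, Ccl2 and Ccl12 together made up less than 0.3% of its UMIs and fewer than 2 of the disease-associated genes Spp1, Lpl, Cst7, Itgax, Clec7a and Igf1 were detected. This left 4419 cells, which were 7.17% of the 61625 kept barcodes and 33.0% of the 13411 gated microglia. All of these genes chose the cells, so their levels are given below as a description.

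Microglia are the resident macrophages of the brain. In the healthy brain they are held in a homeostatic state by TGF-beta and CSF1 receptor signals, and they survey their surroundings through surface receptors such as P2RY12, which senses purines, and CX3CR1, the receptor of the neuronal chemokine fractalkine. Activated microglia release chemokines such as CCL3 and CCL4, and both these transcripts and immediate-early genes are also known to rise while brain tissue is being dissociated with enzymes.

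The study compared R182C-TgN3 mice, a model of CADASIL, with WT-TgN3 mice. CADASIL is an inherited disease of small brain vessels caused by variants of NOTCH3, a receptor of vascular smooth muscle cells and pericytes. Both genotypes carry a human NOTCH3 transgene in addition to the mouse gene. The transgene has the R182C variant in the former and is unmutated in the latter, so no group here lacks a transgene. The sample titles label every R182C-TgN3 mouse Tg350 and every WT-TgN3 mouse Tg100. The variant therefore cannot be told apart from other differences between the mice with these labels. Cells of the brain vasculature were enriched by panning with antibodies to CD31, an endothelial protein, and 1 droplet library was made per mouse. There were 3 R182C-TgN3 and 3 WT-TgN3 mice of 6 months, and 3 R182C-TgN3 and 2 WT-TgN3 mice of 9 months. They were 7 females and 4 males in 4 batches. Mice of 9 months were all in batches 1 and 2 and mice of 6 months all in batches 3 and 4, so that age and batch cannot be told apart. Since the panning was aimed at endothelial cells, shares of microglia are shares of the cells it left and not of the brain.

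The libraries held between 17550806 and 64215050 UMIs and 66658 barcodes in all. A barcode sequence found in at least 2 libraries was seen for 666 kept barcodes, and for 3 of the low-chemokine homeostatic microglia. Ddx3y, Uty, Eif2s3y and Kdm5d, genes of the Y chromosome, and Xist followed the labelled sex in the low-chemokine cells. In the same libraries 29590 barcodes were gated as endothelial cells, 2052 as mural cells and 291 as perivascular macrophages.

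The label of microglia was checked against 2 markers that the rule did not use, Gpr34 and Siglech. With every cell thinned to 2000 UMIs, which left 3665 of the 4419 cells, at least 1 UMI of Gpr34, a receptor for lysophosphatidylserine, was found in 81.1% of them, and 1.81% of endothelial cells held one. Siglech, a microglial lectin, was detected in 77.0% against 1.39% of endothelial cells. The genes of the rule chose the cells and check nothing. As a description, Cx3cr1 was detected in 96.4%, P2ry12 in 90.4%, Fcrls in 74.1% and Tmem119 in 68.8%. Perivascular macrophages were gated by at least 4 UMIs summed over Mrc1, Cd163, Pf4, Cbr2, F13a1 and Lyve1, with Cldn5 and Flt1 at most 3. That gate set no limit on microglia genes. It held Gpr34 in 28.9% and Siglech in 18.6% of thinned cells. Gpr34 and Siglech were thus detected in most of the chosen cells, and a minority that held few core microglial transcripts is described below.

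The 4 rule genes and both other markers have these places on the mm10 genome in the GENCODE vM21 annotation. P2ry12 (ENSMUSG00000036353) spans 59216272 to 59262871 of chromosome 3 on the minus strand. Cx3cr1 (ENSMUSG00000052336) spans 119901616 to 120069879 of chromosome 9, Tmem119 (ENSMUSG00000054675) spans 113793729 to 113800516 of chromosome 5, and Fcrls (ENSMUSG00000015852) spans 87250758 to 87263738 of chromosome 3, all on the minus strand. Gpr34 (ENSMUSG00000040229) spans 13632089 to 13640858 of chromosome X and Siglech (ENSMUSG00000051504) spans 55768178 to 55778925 of chromosome 7, both on the plus strand.

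Cells near each limit of the rule were common for the chemokines and rare for the other genes. Between 0.2% and 0.3% chemokine UMIs there were 1272 cells inside the limit, and between 0.3% and 0.4% there were 1090 outside it, with a median of 0.138% over the chosen cells. Exactly 4 UMIs of the microglia genes were held by 180 cells inside, and 3 UMIs by 246 barcodes outside. A single disease-associated gene was detected in 304 chosen cells, none in 4115, and exactly 2 genes in 51 cells outside. The chemokine limit is therefore a cut through a continuous range and not a gap between kinds of cell.

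Each mouse gave between 161 and 1054 of these cells. In R182C-TgN3 mice of 9 months there were 1054, 183 and 590 in replicates 1, 2 and 3, and in those of 6 months there were 184, 161 and 264. In WT-TgN3 mice of 6 months there were 343, 328 and 508, and in the 2 of 9 months there were 292 and 512. The mice were thus unequal in precision, with R182C-TgN3 9 months replicate 1 holding the most cells. The median UMIs per cell ranged from 3039 to 7011 across mice.

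The low-chemokine share of microglia was lower on average in R182C-TgN3 mice, but the genotypes overlapped. Of the gated microglia, R182C-TgN3 mice of 9 months held 41.6%, 22.1% and 34.7%, and those of 6 months held 24.5%, 31.1% and 24.3%. WT-TgN3 mice of 6 months held 33.0%, 51.1% and 25.2%, and those of 9 months held 58.4% and 28.5%. WT-TgN3 6 months replicate 2 and WT-TgN3 9 months replicate 1 were above every R182C-TgN3 mouse, while the other 3 WT-TgN3 mice lay within the R182C-TgN3 range. The means were 29.7% ± 7.51 (SD, n = 6) and 39.2% ± 14.6 (SD, n = 5), a difference of -9.54 percentage points that did not pass a 2-sided exact permutation test over the 462 splits of the mice (p = 0.210, where the smallest possible p is 0.00216). Within batches the difference was -11.6 in batch 1, -14.3 in batch 3 and -0.971 in batch 4. With those 2 WT-TgN3 mice left out, a choice made after the values were seen, it turned to 0.792 (exact permutation p = 0.869).

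As a share of all kept barcodes, the values were 6.29% ± 2.78 (SD, n = 6) in R182C-TgN3 mice and 7.25% ± 0.951 (SD, n = 5) in WT-TgN3 mice. R182C-TgN3 mice ran from 3.82% to 10.7% and WT-TgN3 mice from 5.64% to 8.06%, so that the WT-TgN3 mice lay inside the R182C-TgN3 range. The difference of -0.964 percentage points did not pass the 2-sided exact permutation test (p = 0.483). Within batches it was 0.174 in batch 1, -2.12 in batch 3 and -3.43 in batch 4.

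**Figure D1:**
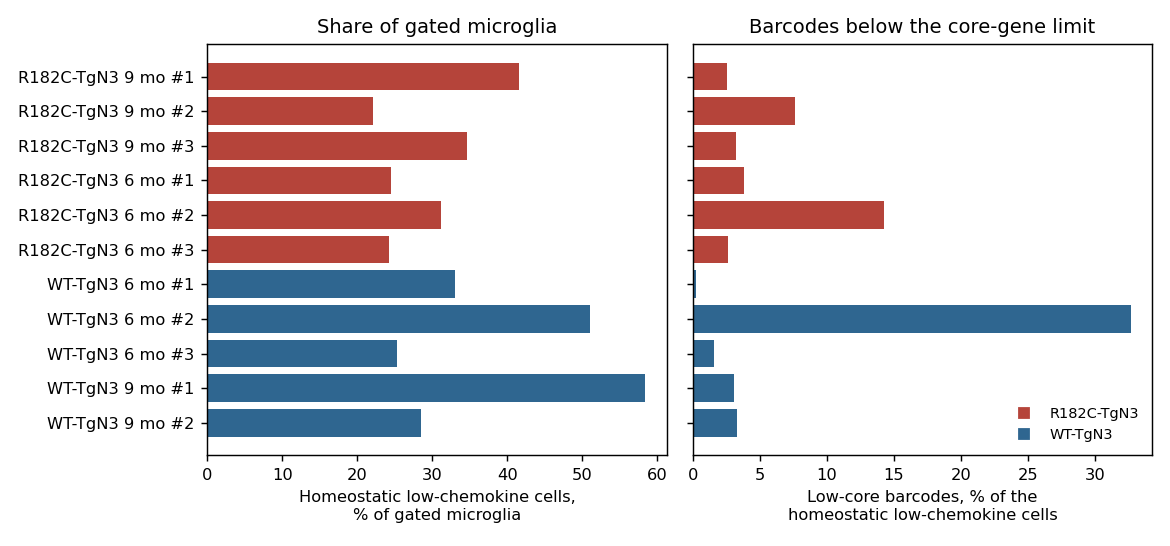
The left panel plots, for each of the 11 mice as a bar, the low-chemokine homeostatic cells as a percentage of gated microglia, and the right panel plots the percentage of those cells whose core microglial genes made up less than 0.5% of UMIs. The tallest bars on the left are 58.4% and 51.1%, both WT-TgN3, and 1 bar on the right, WT-TgN3 6 months replicate 2 at 32.6%, stands above the others.

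A minority of the cells held few transcripts of core microglial genes. A core list of 7 genes, among them C1qa, C1qb, C1qc, Csf1r, Ctss and Tyrobp, which most microglia transcribe strongly and which the rule did not use, made up less than 0.5% of UMIs in 239 of 4419 cells (5.41%), against 39 of 8654 (0.451%) of the chemokine-high microglia. Both this core list and its limit were chosen after the values were seen. The share was 32.6% (107 cells) in WT-TgN3 6 months replicate 2 and 14.3% in R182C-TgN3 6 months replicate 2, and it lay between 0.292% and 7.65% in the other 9 mice. In WT-TgN3 6 months replicate 2 such cells held 35.5% of all UMIs of the chosen cells, so each result below is also given without them where this matters.

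The cells low in core genes were not of 1 kind. In CPM (each count divided by the UMIs of the summed cells and scaled to 1e6), the 5 choroid plexus markers summed to 95842 in R182C-TgN3 9 months replicate 2, 72478 in R182C-TgN3 6 months replicate 2, 128640 in WT-TgN3 6 months replicate 3, 115904 in WT-TgN3 9 months replicate 2 and 32851 in R182C-TgN3 9 months replicate 3, and to at most 272 in the other 6 mice. The 9 mural markers summed to 18659 CPM in WT-TgN3 9 months replicate 1 and 13381 CPM in R182C-TgN3 9 months replicate 1. In WT-TgN3 6 months replicate 2, by contrast, choroid plexus markers were at 144 CPM and mural markers at 1260 CPM. The cells low in core genes of that mouse held 11410 CPM of phagocytosis genes against 9518 CPM in its other chosen cells, but 6880 CPM of homeostatic surface genes against 16891 CPM. Plxdc2 and Nav2, named after their values were seen, were at 7811 and 5346 CPM there against 4415 and 2929 CPM in the same mouse's other chosen cells. The ratio of Plxdc2 in cells low in core genes to the other chosen cells was 1.77 in that mouse and between 0 and 0.970 in the other 10 mice. For Nav2 it was 1.83 in that mouse, 1.40 in R182C-TgN3 6 months replicate 2 and 1.03 in R182C-TgN3 9 months replicate 3. It was at most 0.924 in the rest, so a higher Nav2 was not particular to that mouse.

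Transthyretin, Ttr, a carrier of thyroid hormone made by the choroid plexus epithelium, shows how few barcodes can set a summed level. It was at 40.8, 12214 and 1657 CPM in R182C-TgN3 mice of 9 months and at 104, 12451 and 6434 CPM in those of 6 months. WT-TgN3 mice of 6 months had 113, 128 and 5738 CPM and those of 9 months 297 and 11592 CPM. High and low mice occurred in both genotypes and at both ages. A single barcode held 98.9% of the Ttr UMIs in R182C-TgN3 9 months replicate 2, 93.6% in replicate 3 of that group, 99.9% in R182C-TgN3 6 months replicate 2 and 97.1% in replicate 3 of that group. The 3 highest barcodes held 96.8% in WT-TgN3 6 months replicate 3 and 98.7% in WT-TgN3 9 months replicate 2. Without cells low in core genes, Ttr was between 19.5 and 298 CPM in every mouse except R182C-TgN3 6 months replicate 3, where it was 6592 CPM because its single high barcode held 0.546% core genes.

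The pituitary hormone genes Prl and Gh, which encode prolactin and growth hormone, were at 9117 and 2896 CPM in WT-TgN3 9 months replicate 2 and at 0 or 1 UMI in each other mouse. The 3 highest barcodes held 83.0% of the Prl and 93.0% of the Gh UMIs, yet at least 1 Gh UMI was seen in 57.0% of the chosen cells of that mouse. Gh and Prl had the largest coefficient of variation across the 11 mice, 3.32 each, among genes with a mean of at least 100 CPM. Trpm3 (1.44), Enpp2 (1.25) and Ttr (1.15), which are genes of choroid plexus epithelium, and Tagln (1.07) and Acta2 (1.03), which encode contractile proteins of smooth muscle, followed with the heat-shock genes Hspa1b (1.03) and Hspa1a (0.888). Acta2 ran from 4.3 to 224 CPM in R182C-TgN3 and from 2.2 to 390 CPM in WT-TgN3 mice. Marker genes of other cell types thus made up most of the genes that varied most between mice.

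**Figure D2:**
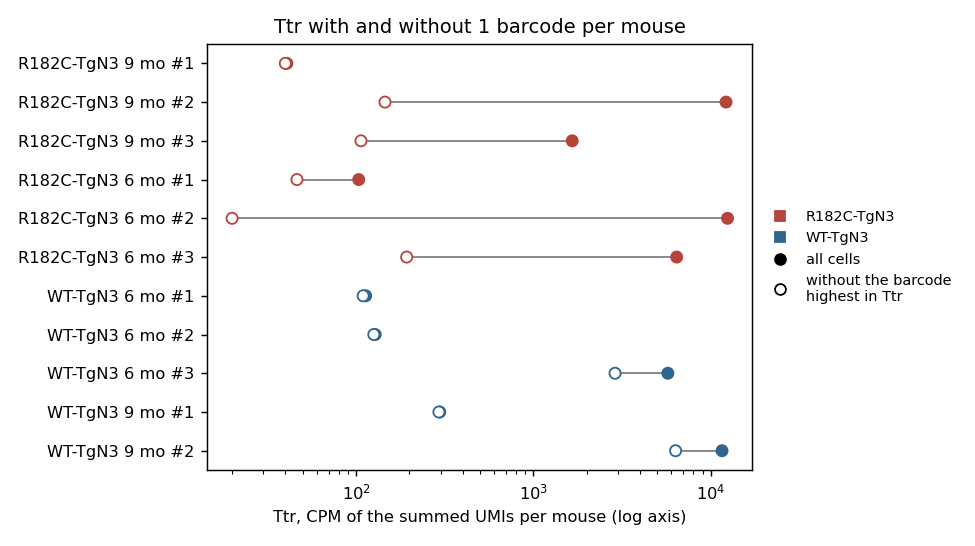
Ttr in the low-chemokine homeostatic cells of each of the 11 mice is plotted in CPM on a log axis, with filled points for all cells and open points with the barcode highest in Ttr removed. Removal of that barcode moves R182C-TgN3 9 months replicate 2 from 12214 to 146 CPM, while WT-TgN3 9 months replicate 2 stays at 6344 CPM.

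The genes of highest level in the chosen cells were only in part genes of microglia. Outside ribosomal and mitochondrial genes, high mean levels over the 11 mice were 29789 ± 12594 CPM (SD) for Gm42418, an RNA that overlaps ribosomal RNA sequence, 28217 ± 4031 CPM for the nuclear RNA Malat1 and 17861 ± 3617 CPM for Cst3, which encodes the protease inhibitor cystatin C. Jun, an immediate-early transcription factor, followed at 6021 ± 1352 CPM, the actin-binding peptide gene Tmsb4x at 5727 ± 1304 CPM, and Ttr at 4615 ± 5305 CPM. Among the next in level, Cmss1 was at 4440 ± 1953 CPM, the Mediator kinase gene Cdk8 at 4070 ± 2031 CPM, and C1qa, a chain of the first complement component, at 3918 ± 628 CPM. C1qa varied little between mice beside Ttr, whose SD exceeded its mean. In endothelial cells Cst3 was at 973 CPM and C1qa at 26.1 CPM, both far below the chosen cells. Gm42418 (57045 CPM), Tmsb4x (5941 CPM), Cmss1 (7591 CPM) and Cdk8 (6335 CPM) were higher in endothelial cells, and Malat1 was at 24833 CPM there.

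The surface markers were at like levels in both genotypes and lowest in 1 WT-TgN3 mouse. Cx3cr1 was at 2402, 2707 and 3241 CPM in R182C-TgN3 mice of 9 months, at 2906, 2394 and 3081 CPM in those of 6 months, at 2971, 1464 and 3096 CPM in WT-TgN3 mice of 6 months, and at 2859 and 2674 CPM in those of 9 months. WT-TgN3 6 months replicate 2 was the lowest for Cx3cr1, P2ry12 (1185 CPM), Tmem119 (474 CPM), Fcrls (648 CPM), Gpr34 (630 CPM) and Siglech (641 CPM). Without cells low in core genes its Cx3cr1 was 1919 CPM and its Gpr34 884 CPM. The microglia genes of the rule then summed to 4798 CPM in that mouse, still the lowest of all mice. The next lowest sum was 5300 CPM, in R182C-TgN3 9 months replicate 1. Homeostatic surface genes outside the rule then summed to 16891 CPM, above the 15809 CPM of R182C-TgN3 9 months replicate 1. Leaving out the cells low in core genes thus raised the marker levels of WT-TgN3 6 months replicate 2. Its sum of the rule genes nevertheless stayed the lowest.

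By genotype, Cx3cr1 was 2788 ± 351 CPM (SD, n = 6) in R182C-TgN3 and 2613 ± 661 CPM (SD, n = 5) in WT-TgN3 mice, P2ry12 1555 ± 191 and 1594 ± 277 CPM, and Tmem119, a membrane protein of microglia, 664 ± 92.3 and 636 ± 93.4 CPM. Fcrls, an Fc receptor-like scavenger receptor, was 909 ± 121 and 872 ± 171 CPM. For Gpr34, which the rule did not use, the values were 1173 ± 196 and 1069 ± 273 CPM, a log2 fold change of 0.16 (SE 0.18, adjusted p = 1.00 by edgeR). The 6 genes therefore differed by less than the spread between mice.

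**Figure D3:**
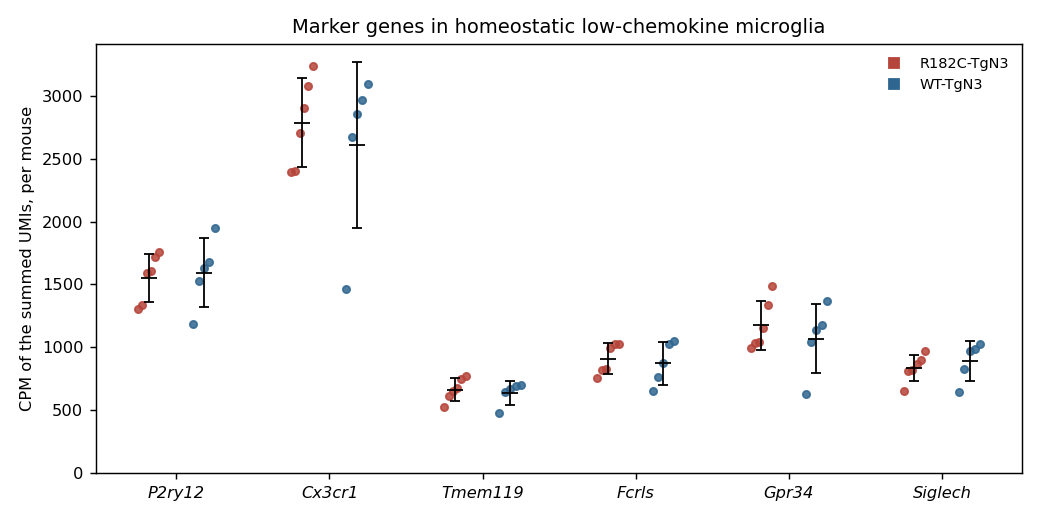
P2ry12, Cx3cr1, Tmem119, Fcrls, Gpr34 and Siglech in the low-chemokine homeostatic cells are plotted side by side on a shared CPM axis, with 1 point per mouse and a bar with whiskers for the mean ± SD of each genotype. The points of the genotypes overlap for every gene, and the lowest point of each gene is WT-TgN3 6 months replicate 2, at 1464 CPM for Cx3cr1.

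No gene passed an adjusted p of 0.05 for genotype over all 11 mice. UMIs of the chosen cells were summed per mouse and 9173 genes were tested with edgeR's quasi-likelihood test, which called 0 (0% of genes tested). At an unadjusted p under 0.05 there were 83 genes (0.905%), and DESeq2 also called 0, with 47 genes at an unadjusted p under 0.05. The median log2 fold change was close to 0, 4534 genes were higher in R182C-TgN3 mice, and the median SE was 0.19. The values of R182C-TgN3 and WT-TgN3 mice did not overlap for 11 genes (0.12%), 1 higher (0.0109%) and 10 lower (0.109%) in R182C-TgN3 mice, and none of these was in a gene list.

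The 5 genes with the smallest p were Negr1, a neuronal adhesion molecule of the immunoglobulin family (log2 fold change -2.76, SE 0.55), Zfyve28 (-0.93, SE 0.28), the matrix protein gene Mgp (2.59, SE 0.79), the HSP90 cochaperone gene Ahsa1 (0.71, SE 0.22) and Pik3r3, a regulatory subunit of PI3-kinase (0.68, SE 0.23), each with an adjusted p of 1.00 by edgeR.

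Negr1 (ENSMUSG00000040037, chromosome 3, 156561794 to 157316445, plus strand) was low in every R182C-TgN3 mouse, at 6.2, 13.4 and 4.6 CPM at 9 months and 2.0, 8.5 and 3.8 CPM at 6 months. It was at 84.8, 19.3 and 56.9 CPM in WT-TgN3 mice of 6 months and at 3.8 and 50.4 CPM in those of 9 months. WT-TgN3 9 months replicate 1 lay within the R182C-TgN3 range and the other 4 WT-TgN3 mice lay above it. UMIs were spread over 47 cells (13.7%) in WT-TgN3 6 months replicate 1 and 66 cells in replicate 3, but in replicate 2 only 6 cells held any, with 56.0% of the UMIs in 1 barcode. In WT-TgN3 9 months replicate 2, 16 cells (3.12%) held them. The chemokine-high microglia of the same mice had 88.8, 16.0 and 75.5 CPM in WT-TgN3 mice of 6 months, 15.8 and 5.2 CPM in those of 9 months, and 1.0 to 12.0 CPM in R182C-TgN3 mice. Perivascular macrophages held the most Negr1, with a mean of 167 CPM over the mice. That mean was 23.1 CPM in the chosen cells, 21.9 CPM in chemokine-high microglia and 1.73 CPM in endothelial cells. What part macrophage RNA had in the difference was not tested. Negr1 passed the threshold when WT-TgN3 9 months replicate 1 was left out (edgeR adjusted p = 0.00656), when at most 5% mitochondrial UMIs were allowed (0.0394), and with 2 WT-TgN3 mice left out (-3.31, 0.00112), and it did not without the cells low in core genes (0.251).

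The homeostatic and immune gene lists also held no gene past the threshold for genotype. Of 20 homeostatic surface genes outside the rule, 14 had a higher and 6 a lower fitted level in R182C-TgN3 mice (median log2 fold change 0.06). Among them, Csf1r, the receptor that microglia need to survive, was 1487 ± 123 CPM (SD, n = 6) in R182C-TgN3 and 1499 ± 198 CPM (SD, n = 5) in WT-TgN3 mice (0.00, SE 0.13). The summed level of the list ran from 13335 CPM in WT-TgN3 6 months replicate 2 to 19863 CPM in R182C-TgN3 6 months replicate 3, and without that WT-TgN3 mouse 8 of 20 genes were higher and the median was -0.01. Of 16 transcription factors, including Sall1, the factor that sets microglial identity, and the myeloid factors Spi1, Irf8 and Mef2c, 7 were higher and the median was -0.02. The median direction of the homeostatic list thus rested on 1 mouse.

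Among genes of clearance, 21 of 24 lysosome genes had a higher fitted level in R182C-TgN3 than in WT-TgN3 mice (median log2 fold change 0.09) and 0 passed the threshold. Cst3 was 18854 ± 4175 CPM (SD, n = 6) in R182C-TgN3 and 16668 ± 2770 CPM (SD, n = 5) in WT-TgN3 mice (0.20, SE 0.19), and the cathepsin genes Ctss and Ctsd differed by 0.03 (SE 0.16) and 0.09 (SE 0.14). Without WT-TgN3 6 months replicate 2, 19 of 24 were higher with a median of 0.04. Of 9 complement genes tested out of 12, 6 were higher with a median of 0.04. C1qa was 4150 ± 635 and 3640 ± 551 CPM (0.21, SE 0.16), and C1qb and C1qc differed by 0.17 (SE 0.16) and 0.15 (SE 0.18). Of 16 phagocytosis genes 8 were higher with a median of 0.02, among them the engulfment gene Elmo1 at -0.16 (SE 0.18). None of these named differences was as large as 2 standard errors.

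For the TGF-beta pathway, which maintains the homeostatic state, 1 of 12 genes was higher in R182C-TgN3 mice and 0 passed the threshold. The median log2 fold change was -0.09. The receptor gene Tgfbr1 was 1322 ± 223 CPM (SD, n = 6) in R182C-TgN3 and 1470 ± 236 CPM (SD, n = 5) in WT-TgN3 mice (-0.14, SE 0.15), and the repressors Skil and Ski differed by -0.16 (SE 0.16) and -0.14 (SE 0.17). The list summed to 5675 CPM in WT-TgN3 6 months replicate 2, the highest of the 11 mice. Without that mouse 7 of 12 genes were higher and the median was 0.02, and without the cells low in core genes 3 of 12 were higher and the median was -0.03. The median was below 0 in 26 of 28 settings.

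Of 15 antigen presentation genes 9 were higher with a median of 0.04. Cd74, the invariant chain of class II molecules, was 148 ± 53.1 CPM (SD, n = 6) in R182C-TgN3 and 207 ± 47.2 CPM (SD, n = 5) in WT-TgN3 mice (-0.47 on the log2 scale, SE 0.23). The interferon-stimulated genes had 8 of 11 higher (median 0.08), the immediate-early and heat-shock genes 14 of 22 (0.03), cytokine and NF-kappaB genes outside the rule 9 of 18 (-0.01), and disease-associated genes outside the rule 13 of 18 (0.09). Of 30 actin genes 16 were higher (0.01). None of these passed the threshold.

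Nuclear genes of oxidative phosphorylation leaned toward R182C-TgN3 mice, without a gene past the threshold. Their median log2 fold change was 0.16, and 72 of 78 genes were higher in R182C-TgN3 mice, while 4534 of all 9173 genes were higher. Cox4i1, a subunit of cytochrome c oxidase, was 275 ± 51.4 CPM (SD, n = 6) in R182C-TgN3 and 240 ± 54.6 CPM (SD, n = 5) in WT-TgN3 mice (0.20, SE 0.17), and Cox8a and Cox7c of the same complex differed by 0.22 (SE 0.21) and 0.24 (SE 0.17). Summed over the list, R182C-TgN3 mice had 4493, 7514 and 6572 CPM at 9 months and 5773, 6920 and 8445 CPM at 6 months. WT-TgN3 mice had 4758, 4363 and 6594 CPM at 6 months and 5900 and 7496 CPM at 9 months, so that the genotypes overlapped. The list moved with the choroid plexus markers, since the 6 mice in which those summed to 1778 CPM or more were the 6 highest in the list (6572 to 8445 CPM) and the 5 in which they summed to 329 CPM or less were the 5 lowest (4363 to 5900 CPM). Cells low in core genes held 12523 CPM of the list when pooled, against 5636 CPM in the other chosen cells. At 6 months 76 of 78 genes were higher in R182C-TgN3 mice (median 0.44) and at 9 months 16 of 78 (median -0.11). The choroid plexus markers had medians of 1.40 at 6 months and -0.37 at 9 months. Without cells low in core genes 69 of 78 genes of the list were higher over both ages (median 0.14), 74 at 6 months (median 0.31) and 35 at 9 months (median -0.02), and the part of choroid plexus RNA in what remained was not tested. Without the 2 WT-TgN3 mice highest in low-chemokine share, 56 of 78 were higher and the median over both ages was 0.06. Genes of 1 list vary together from mouse to mouse, so that the counts are not counts of independent genes.

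Oxidative phosphorylation subunits of mitochondrial DNA, which were not in the tested set, summed to 21653 ± 4647 CPM (SD, n = 6) in R182C-TgN3 and 21614 ± 4205 CPM (SD, n = 5) in WT-TgN3 mice. WT-TgN3 6 months replicate 2 was the highest at 29031 CPM and also the lowest of all mice in the nuclear list at 4363 CPM. Of 20 glycolysis and hypoxia genes 14 were higher in R182C-TgN3 mice (median 0.13), with Gapdh at 0.23 (SE 0.19), Hk2 at -0.16 (SE 0.25) and Pfkfb3 at -0.27 (SE 0.25). Polg2, Nfe2l2, Nfe2l3 and Milr1 form a list built around a microglial cluster that the study described on these samples, so it is not independent evidence. Polg2, a subunit of the mitochondrial DNA polymerase, had a log2 fold change of 0.11 (SE 0.24), and the stress-response factors Nfe2l2 and Nfe2l3 had -0.02 (SE 0.14) and 0.50 (SE 0.20). Milr1, a receptor of the immunoglobulin family, had 0.02 (SE 0.22), and each had an edgeR adjusted p of 1.00. Of 9 Notch genes 3 were higher (median -0.05). Maml2, a nuclear partner of Notch, differed by -0.12 (SE 0.17), the receptor gene Notch2 by -0.02 (SE 0.15) and the DNA-binding partner Rbpj by -0.14 (SE 0.16).

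At 6 months alone 0 of 10065 genes passed (0%), with 365 (3.63%) at an unadjusted p under 0.05, and DESeq2 called 0. Among the smallest p were those of Mrpl41, a mitochondrial ribosomal protein gene (log2 fold change 1.03, SE 0.21), Negr1 (-3.56, SE 0.87), the ephrin gene Efnb2 (-1.50) and the phosphodiesterase gene Pde1a. Pde1a had 0 UMIs in all 3 R182C-TgN3 mice and 0, 7 and 14 UMIs in the WT-TgN3 mice of 6 months, so its fitted value of -6.07 depends on the prior count. It was at 364 CPM in mural cells against 5.29 CPM in the chosen cells, and all 8 mural markers tested were lower in R182C-TgN3 mice of 6 months (median -2.53), with 0 past the threshold. Without the cells low in core genes 3 genes passed, which were Negr1 (-3.60, edgeR adjusted p = 0.0193), H2-Aa and H2-Eb1. The class II genes H2-Aa and H2-Eb1 are markers of other antigen-presenting cells, and H2-Aa UMIs lay in at most 10 barcodes per mouse, with 0 in R182C-TgN3 6 months replicate 3.

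At 9 months 1 of 10065 genes passed (0.00994%), with 126 (1.25%) at an unadjusted p under 0.05. This was Mid1, an E3 ubiquitin ligase that binds microtubules (ENSMUSG00000035299, chromosome X, 169685199 to 170005736, plus strand). Mid1 was at 155, 125 and 228 CPM in R182C-TgN3 mice of 9 months against 45.7 and 36.8 CPM in the 2 WT-TgN3 mice of that age. At 6 months it was at 128, 145 and 183 CPM in R182C-TgN3 and 132, 137 and 109 CPM in WT-TgN3 mice. Both WT-TgN3 mice of 9 months were thus below the other 9 mice, which overlapped, and they were also below the 2 R182C-TgN3 mice of their own batch, batch 1, at 155 and 125 CPM. The difference at 9 months was 2.09 on the log2 scale (SE 0.29, edgeR adjusted p = 0.0403), and 4.67e-09 by DESeq2. Mid1 was detected in 18.8% and 16.2% of the cells of both low mice and in 29.3% to 53.8% in the others, so the difference was not carried by a few barcodes.

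The call for Mid1 rested on 2 WT-TgN3 mice, one male and one female. With 1 mouse left out at a time the log2 fold change stayed between 1.81 and 2.24, and the adjusted p ran from 0.0144 to 0.998. It was past the threshold without R182C-TgN3 9 months replicate 2, R182C-TgN3 6 months replicate 3 or WT-TgN3 9 months replicate 1, and not with any of the other 8 left out. Without cells low in core genes it was 2.17 (edgeR adjusted p = 0.00123). The chemokine-high microglia of the same mice, which share libraries with the chosen cells, had 177, 151 and 237 CPM in R182C-TgN3 mice of 9 months, 40.5 and 47.8 CPM in WT-TgN3 mice of that age, and 121 to 211 CPM in the 6 mice of 6 months. Endothelial cells had 36.1 to 74.7 CPM over the 11 mice, with 49.7 and 50.7 CPM in those 2 WT-TgN3 mice. The low values of Mid1 in these 2 mice were thus seen in both microglial groups and not in endothelial cells.

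**Figure D4:**
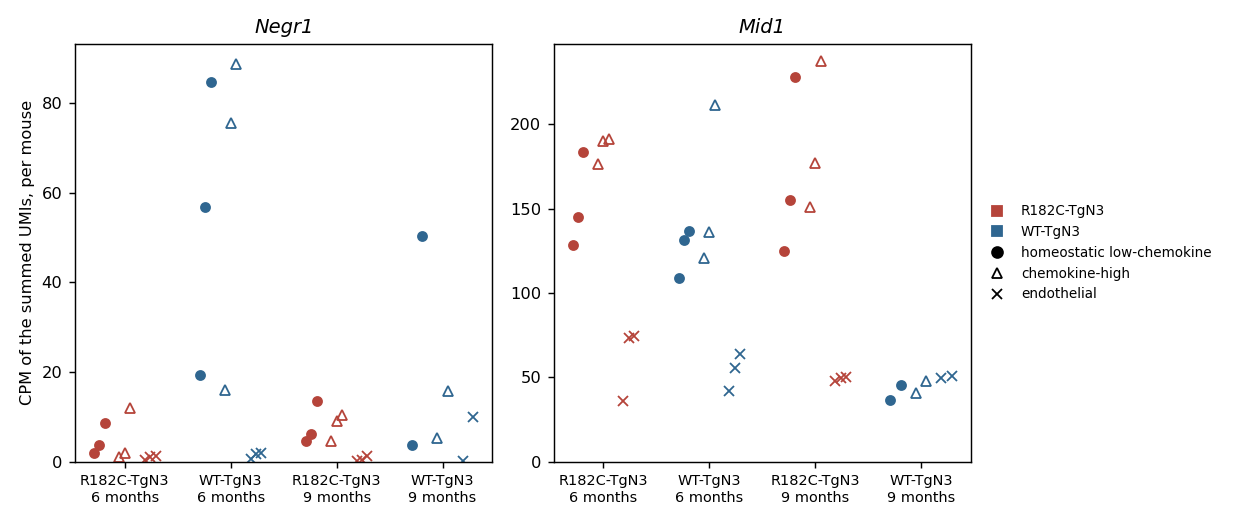
Negr1 and Mid1 are plotted in CPM for each of the 11 mice by genotype and age, with circles for the low-chemokine homeostatic cells, triangles for chemokine-high microglia and crosses for endothelial cells. Both microglial groups of the WT-TgN3 mice of 9 months are low in Mid1, between 36.8 and 47.8 CPM, and Negr1 is high in both microglial groups of WT-TgN3 6 months replicates 1 and 3.

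Whether the genotype difference itself changed with age was tested with an interaction term, which called 0 of 10065 genes by edgeR (0%; 270 genes, 2.68%, at an unadjusted p under 0.05) and 1 by DESeq2, Mid1. By DESeq2 its difference was 1.80 more at 9 months on the log2 scale (DESeq2 adjusted p = 0.0274). By edgeR it was 1.78 more (SE 0.37, edgeR adjusted p = 0.999). The opposite counts of the nuclear oxidative phosphorylation genes at the 2 ages therefore included no gene whose change of difference passed the threshold, although 76 of the 78 had a lower fitted difference at 9 months (median -0.57). The same median was -1.87 for the 5 choroid plexus markers, and it was -0.34 for the nuclear list without cells low in core genes.

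Between mice of 9 and 6 months, with batch inseparable from age, 0 of 10065 genes passed in edgeR (0%; 885, or 8.79%, at an unadjusted p under 0.05), and DESeq2 called 40 (0.398%). The smallest p were those of the integrin gene Itga4 (-2.28, SE 0.33, edgeR adjusted p = 0.0634), Il31ra, a cytokine receptor chain (-2.14, SE 0.36), the hyaluronan receptor gene Cd44 (-1.49, SE 0.27), the heat-shock gene Hspa1a (1.72, SE 0.33) and Thsd7a (2.28, SE 0.44). DESeq2 called all 5, with adjusted p of 1.79e-05 for Itga4, 2.72e-06 for Il31ra, 0.000874 for Cd44, 0.0209 for Hspa1a and 0.0206 for Thsd7a. In edgeR Itga4 also passed with any of 5 single mice left out (adjusted p from 0.00839 to 0.0449). Without the cells low in core genes Il31ra (-2.17, adjusted p = 0.0290) and Grik1 (-2.18, 0.0398) passed. Il31ra was at 105, 93.9 and 186 CPM in R182C-TgN3 and 46.7, 128 and 55.6 CPM in WT-TgN3 mice of 6 months, and at 16.2, 24.6 and 50.3 CPM in R182C-TgN3 and 15.8 and 19.6 CPM in WT-TgN3 mice of 9 months. Every mouse of 6 months except WT-TgN3 replicate 1 was above all mice of 9 months. In endothelial cells of the same libraries Il31ra was at 124 to 347 CPM at 6 months and 44.4 to 124 CPM at 9 months. Other cells also held more of the other 4 genes. Itga4 averaged 16.3 CPM in the chosen cells, 141 CPM in perivascular macrophages and 79.0 CPM in mural cells. Cd44 averaged 31.8 CPM against 217 CPM in macrophages, and Hspa1a 243 against 697 CPM. Thsd7a averaged 7.09 CPM against 144 CPM in mural and 41.5 CPM in endothelial cells. What part RNA from other cells had in these age differences was not tested.

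The immediate-early and heat-shock list had 20 of 22 genes higher at 9 months (median 0.22, against -0.01 over all genes). Hspa1a was at 795, 132 and 407 CPM in R182C-TgN3 and 305 and 351 CPM in WT-TgN3 mice of 9 months, and at 83.9 to 157 CPM in the 6 mice of 6 months. R182C-TgN3 9 months replicate 2 lay within the 6-month range and the other 4 older mice above it. Without that mouse Hspa1a (1.94, edgeR adjusted p = 0.00221) and Hspa1b (2.06, 0.00397) passed the threshold. The TGF-beta list had 0 of 12 genes higher (median -0.13), and the endothelial markers outside the rule 0 of 10 (median -0.43). No gene of these lists passed the threshold in edgeR with all 11 mice, and DESeq2 called Hspa1a alone among them.

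Between the sexes 6 of 10065 genes passed (0.0596%), 4 higher in males (0.0397%) and 2 lower (0.0199%), all of them sex-linked, and 281 (2.79%) had an unadjusted p under 0.05. Ddx3y (9.71), Eif2s3y (9.25), Uty (9.02) and Kdm5d (6.83) were higher in the 4 males on the log2 scale, fitted values that depend on the prior count because females hold almost no such UMIs, and Xist (-9.45) and its antisense gene Tsix (-7.13) were lower. DESeq2 called 7 (0.0695%), with the X-linked demethylase gene Kdm6a in addition (-0.79, adjusted p = 0.00549).

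How the chosen cells sat within the range of chemokine levels was described with all gated microglia that held fewer than 2 disease-associated genes, in 6 bins of chemokine share. The bins held 349 cells at 0, 1293 cells up to 0.1%, 1505 cells up to 0.2%, 1272 cells up to 0.3%, 5202 cells up to 1% and 3452 cells above, with median UMIs of 1902.5, 5005, 4966, 5239, 5738 and 6211.5, so a cell at 0 was also shallow. Cytokine and NF-kappaB genes outside the rule summed to 2704 ± 760 CPM (SD over 11 mice) at 0, 3693 ± 498 CPM in the next bin, 4198 ± 542 CPM just below the limit and 5482 ± 665 CPM in the top bin. Nfkbia, the inhibitor that NF-kappaB itself induces, went from 415 to 617, 748, 738, 948 and 1198 CPM over the 6 bins, and Cd83, a surface protein of activated myeloid cells, from 256 to 605 CPM. These genes thus ran along with the chemokines also inside the low-chemokine range.

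Immediate-early and heat-shock genes were high throughout that range. They summed to 23742 ± 9591 CPM (SD over 11 mice) at 0, 30313 ± 6228 CPM in the next bin, 34070 ± 6858 CPM just below the limit and 35812 ± 6825 CPM in the top bin. Fos was at 1715 CPM at 0, 2460 CPM in the next bin and 2806 CPM in the top bin. In thinned cells Fos was detected in 87.3% of the chosen cells, 90.6% of chemokine-high microglia and 56.3% of endothelial cells. The low-chemokine cells were therefore not cells without immediate-early transcripts, and what part the dissociation had in these levels was not tested.

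The homeostatic surface genes changed less in proportion along the bins than the cytokine and NF-kappaB genes. They summed to 17319 ± 3094 CPM (SD over 11 mice) at 0, to 16431, 16905, 17930 and 18232 CPM in the next 4 bins, and to 18118 ± 1106 CPM in the top bin. The bins hold cells of the same mice, so the SD between mice is no measure of the change along them. Tmem119, a gene of the rule, was at 658 CPM at 0 and 667 CPM in the top bin and P2ry12 at 1373 to 1672 CPM. The lysosome genes summed to 39176 CPM at 0, 35060 CPM in the next bin and 44094 CPM in the top bin. Choroid plexus markers summed to 6918, 6857 and 6803 CPM in the 3 lowest bins and to 157, 356 and 151 CPM in the 3 highest, so that the barcodes rich in Ttr lay almost wholly under 0.2% of chemokine UMIs.

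**Figure D5:**
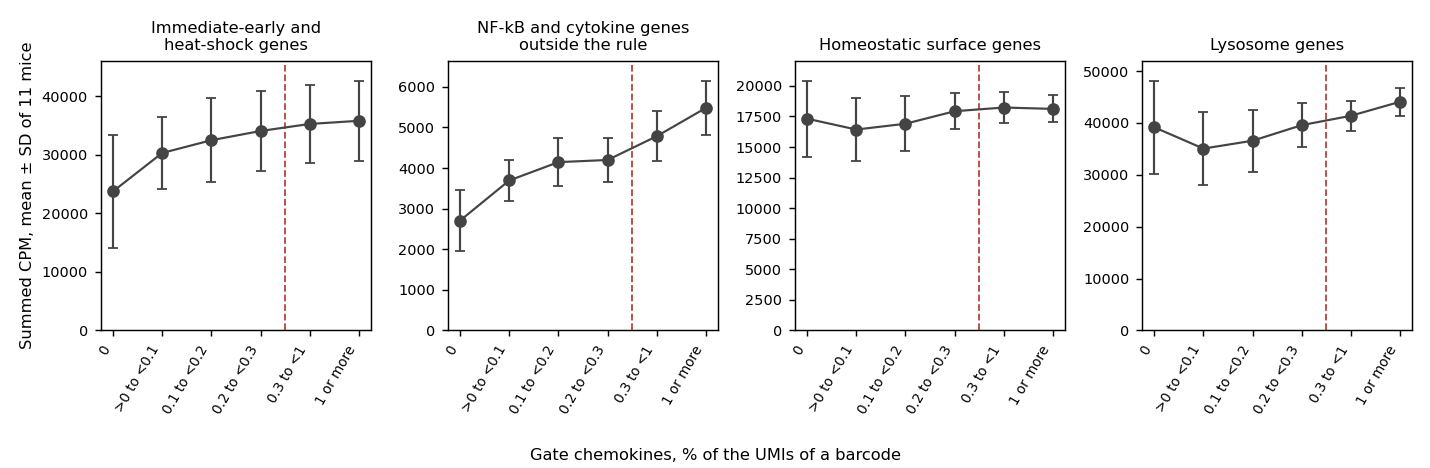
The summed CPM of 4 gene lists is plotted against 6 bins of the chemokine share of UMIs in gated microglia, as the mean ± SD over 11 mice, with a dashed line at the 0.3% limit. Cytokine and NF-kappaB genes outside the rule climb from 2704 to 5482 CPM across the line, while homeostatic surface genes stay between 16431 and 18232 CPM.

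Set beside the 8654 chemokine-high microglia of the same mice, as a description since the chemokine limit separates both sets, the chosen cells were lower in cytokine and NF-kappaB genes outside the rule in 11 of 11 mice (ratio of high to low 1.29, and 1.53 for Nfkbia). They were lower in lysosome (1.15), complement (1.17) and outside-rule disease-associated genes (1.18) in 11 of 11 mice, and in homeostatic surface genes (1.07) and immediate-early and heat-shock genes (1.12) in 10 of 11. They were higher in genes of mitochondrial DNA in 11 of 11 mice (0.776). Phagocytosis genes were nearly even (0.968, higher in the chemokine-high cells in 5 of 11 mice), as were the nuclear oxidative phosphorylation genes (0.987, 6 of 11). Choroid plexus and mural markers had far higher means in the chosen cells (0.0564 and 0.261). They were nevertheless higher in the chemokine-high cells in 2 of 11 mice for choroid plexus and 4 of 11 for mural markers. The chemokine-high cells were deeper, with median UMIs per mouse of 4024.5 to 8279, and held fewer cells low in core genes, and the part of either in these ratios was not tested.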

How the data were processed

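Per the labels and the study's methods, the authors aligned reads with Cell Ranger 7.0.0 to the mm10 transcriptome with human NOTCH3 added and deposited raw UMI counts per gene and called barcode, without normalization. All 11 mice were kept (the study left 1 control mouse, not named in the labels, out of its microglia analysis). Microglia and lists were chosen with earlier results of these data known. Barcodes were gated as described above, with no doublet caller (1.20% of the chosen cells fell among the highest doublet scores, 0.8% per 1000 barcodes). UMIs of the chosen cells were summed per mouse. Ribosomal, mitochondrial, Gm and Rik genes (11168 of 32287) were left out of the tests, low genes were dropped by filterByExpr, libraries were scaled by TMM, and edgeR's quasi-likelihood test was run (edgeR 4.0.16, R 4.3.3) with genotype alone as the term for the comparison over all mice, genotype-by-age groups for the ages and their interaction, and sex added to these groups. P-values were adjusted over all tested genes by Benjamini-Hochberg. CPM are counts divided by the UMIs of the summed cells and scaled to 1e6. The test script was checked on simulated data. Shares were compared by exact permutation (Python 3.11.15, numpy 2.4.6, scipy 1.17.1, pandas 2.3.3; figures with matplotlib 3.10.9). Depth was 17550806 to 64215050 UMIs per library, and intervals cover the spread between mice only.

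Named were up to 4 genes of highest mean CPM per list and any list gene past the threshold, the genes past the threshold in each comparison (the 5 smallest p where fewer passed), the 10 of largest coefficient of variation among genes with a mean of at least 100 CPM and the 10 of highest mean CPM. The core genes, Plxdc2, Nav2, and genes named only under an alternative were chosen after their values were seen. Alternatives were at least 1000 genes, at most 5% mitochondrial UMIs, a microglia sum of at least 8, chemokine limits of 0.1% and 1%, no disease-associated gene, the rule after thinning to 2000 UMIs, doublet-scored barcodes removed, DESeq2 1.42.0, its size factors in edgeR, tests without the filter or with all genes, a covariate for batch or for sex, replicate blocks and each mouse left out. Chosen after seeing the data were the limit on core genes and leaving out 2 WT-TgN3 mice together. Some genes that these rules name are not reported here.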

Additional observations from a re-analysis of the deposited data

Results flagged for a closer look

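Of 112 groups of mice screened for a single value far from the rest, 18 values were flagged. Chance alone flags about 1 group in 20 of independent, normally spread values. The screen held genes picked above for their spread between mice and measures that overlap, so the count cannot be compared with that rate. WT-TgN3 6 months replicate 2 gave 7 of them, with 32.6% of its chosen cells low in core genes, 2.90% mitochondrial UMIs, 1464 CPM of Cx3cr1, 474 CPM of Tmem119, 3771 CPM for the sum of the 4 microglia genes of the rule, 26943 CPM for the lysosome genes and 29031 CPM for the oxidative phosphorylation genes of mitochondrial DNA. These 7 are not separate results. The mitochondrial percentage and the mitochondrial DNA genes are the same UMIs, and Cx3cr1 and Tmem119 are part of the sum of 4 genes.

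WT-TgN3 9 months replicate 2 stood apart in Gh (2896 CPM), Prl (9117 CPM) and summed neuron markers (281 CPM). The single Prl UMI of R182C-TgN3 6 months replicate 3 (0.630 CPM) was flagged because the other R182C-TgN3 mice were at 0. Summed neuron markers were at 35.1 CPM and fibroblast markers at 88.1 CPM in R182C-TgN3 9 months replicate 2. Erythroid markers were at 1116 CPM in R182C-TgN3 9 months replicate 3, where 95.8% of the Hbb-bs UMIs lay in 1 barcode, and at 113 CPM in WT-TgN3 6 months replicate 3. Perivascular macrophage markers outside the rule were at 5.98 CPM in R182C-TgN3 9 months replicate 3, lymphocyte markers at 86.2 CPM in R182C-TgN3 9 months replicate 1, the lowest of its genotype, and interferon-stimulated genes at 347 CPM in WT-TgN3 6 months replicate 1, also the lowest of its genotype.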

How the results depend on the processing

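Genes called for genotype over all mice were 0 or 1 with 1 mouse left out (1, Negr1, without WT-TgN3 9 months replicate 1), 1 with at most 5% mitochondrial UMIs and 1 with 2 WT-TgN3 mice left out. At 6 months there were 3 without cells low in core genes, 4 with no filter on low counts and 0 to 0 with 1 mouse left out. At 9 months there were 26 with no filter and 0 to 29 with 1 mouse left out (29 without WT-TgN3 9 months replicate 1, which leaves 1 WT-TgN3 mouse of that age, assumed to vary like the other groups). The interaction gave 1 with DESeq2, 5 with no filter and 0 to 23 with 1 mouse left out (23 without that same mouse). Age gave 40 with DESeq2, 2 without cells low in core genes, 119 with no filter and 0 to 40 with 1 mouse left out (40 without WT-TgN3 9 months replicate 2, 12 without R182C-TgN3 9 months replicate 3). Sex gave 88 with no filter and 6 to 13 with 1 mouse left out (13 without R182C-TgN3 9 months replicate 2). With no filter many more sparse genes enter the test, and the other causes were not tested. The difference in the share of gated microglia reversed to 0.792 with 2 WT-TgN3 mice left out and ran from -13.0 to -4.75 with 1 mouse left out. That in the share of kept barcodes ran from -1.79 to -0.498 over 12 alternatives and from -1.84 to -0.471 with 1 mouse left out, none past the threshold.

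Same-numbered mice of 1 age were correlated by only 0.011 to 0.398 in their deviations, so the numbers were not taken to pair mice. A replicate block gave 0 calls for genotype and 4 at 6 months (Acta2, Myl9 and Negr1 among them). Of 3201 values of named genes under alternatives, 3145 were scored as the same, 14 moved, and 8 lost and 34 gained a call. For a gene not called in the main test, the same meant no call and a shift under the SD of its log2 CPM over mice. Direction was checked only for genes called in the main test, and 0 of their values reversed. With 161 cells in the smallest sum and a median SE of 0.19 on the log2 scale, small differences were not detectable at this depth and number of mice.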

Other observations

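Grik1, a kainate receptor gene named after its values were seen, was at 22.4, 13.4 and 81.6 CPM in the chosen cells of R182C-TgN3 mice of 9 months, at 122, 169 and 54.1 CPM in those of 6 months, at 97.2, 80.4 and 127 CPM in WT-TgN3 mice of 6 months and at 21.2 and 10.8 CPM in those of 9 months. In endothelial cells of the same libraries it was at 16.0, 11.8, 54.4, 92.6, 120, 39.4, 60.1, 38.7, 132, 16.3 and 9.3 CPM in that order of mice. Hspa1a in endothelial cells was at 579, 186 and 301 CPM in R182C-TgN3 and 376 and 383 CPM in WT-TgN3 mice of 9 months, and at 110 to 203 CPM in the 6 mice of 6 months. In either cell type Grik1 was mostly lower and Hspa1a mostly higher at 9 months, with R182C-TgN3 9 months replicate 3 apart from its group for Grik1 and replicate 2 for Hspa1a. Age and batch cannot be told apart, and RNA shared between the cells of a library was not tested as a source of the likeness.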
